A study of Mus musculus with 6 samples.

Results

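A group of 10 genes of the transforming growth factor beta (TGF-beta) pathway, out of 53379 gene identifiers in the count tables, were followed in regulatory T cells (Tregs) with and without an intact Junb gene. They were Tgfb1, which encodes the ligand, and Ltbp4, Ltbp3 and Lrrc32, whose products anchor the latent complex of the ligand. The others were the receptor genes Tgfbr1 and Tgfbr2, the signal transducers Smad3 and Smad4, and the inhibitors Smad7 and Skil. The set was selected on measured values of these same libraries, since Ltbp4 was known to be far lower without intact Junb, so the differences between genotypes below are a description and carry no p-value of their own. All 10 genes were matched by symbol and passed the filter on low counts. Both genotypes were C57BL/6 mice aged 3 months with the Foxp3YFP-Cre allele, in which Cre recombinase is made where Foxp3, the defining transcription factor of Tregs, is expressed. WT libraries carried Junb+/+ with that allele, and bKO libraries carried JunbFlox/Flox with it. Each genotype had 3 libraries of sorted Tregs. The sources used here name neither the gate of the sort nor whether each library came from its own mouse, so p-values measure only the spread between these libraries, which may be technical.

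TGF-beta is made as a latent complex in which its own propeptide encloses the ligand. A latent TGF-beta binding protein (an LTBP) ties that complex to the extracellular matrix, whereas LRRC32 (GARP) holds it on the surface of Tregs and platelets until integrins release it. The freed ligand joins the receptors TGFBR2 and TGFBR1, which phosphorylate SMAD2 and SMAD3. These enter the nucleus with SMAD4, and the inhibitors SMAD7 and SKIL, themselves induced by the pathway, restrain the signal. In T cells TGF-beta is known for the induction of Foxp3 and of the integrin chain Itgae, and for the restraint of effector responses.

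Library totals lay between 33784183 and 41231173 counts. Levels are given in CPM (counts scaled to library size) with TMM library sizes, as mean ± SD over 3 libraries, and differences as the log2 difference (bKO minus WT) of the edgeR fit with its standard error (SE). Junb itself stood at 84.7 ± 6.32 CPM in WT and 54.7 ± 4.38 CPM in bKO, with every bKO library below every WT library, so Junb RNA was lower but not absent in bKO. The Treg markers used to check the label (Foxp3, Il2ra, Ctla4, Ikzf2, Tnfrsf18 and Izumo1r) were all found in each library. Their summed level was 1689 to 1979 CPM in WT, and 795, 1357 and 1799 CPM in bKO replicates 1 to 3, so bKO replicate 1 stood apart. Markers of B cells were also present, at 1934 to 8439 CPM in WT and 2797 to 6296 CPM in bKO in sum, with the highest sum in WT replicate 2. No marker passed the edgeR test, but most genes of a list had means on one side. Fitted levels were lower in bKO for 6 of 6 Treg markers (median log2 difference -0.47) and 6 of 6 markers of all T cells (-0.20). They were higher for 7 of 9 conventional CD4 T (0.27), 6 of 7 CD8 T and NK (0.74), 6 of 7 B cell (0.39) and 9 of 9 myeloid markers (0.65). In bulk RNA, fewer cells of a type and less RNA per cell cannot be told apart.

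Ltbp4 (ENSMUSG00000040488.17) was the member that stood lower in bKO by a wide margin. The gene lies on chromosome 7, positions 27305136 to 27337692 of GRCm38, on the minus strand, and its exons overlap no other annotated gene. RefSeq lists start regions for it at separate places, and the bases before an upstream and a downstream start are shown because Ltbp4 carries the difference between genotypes and its transcripts begin there. The windows are on the minus strand of GRCm38.p6, written 5' to 3', at chr7:27337613-27337862 and chr7:27333649-27333898, and a further listed start is shifted by 15 bases from the latter:
Ltbp4 upstream start: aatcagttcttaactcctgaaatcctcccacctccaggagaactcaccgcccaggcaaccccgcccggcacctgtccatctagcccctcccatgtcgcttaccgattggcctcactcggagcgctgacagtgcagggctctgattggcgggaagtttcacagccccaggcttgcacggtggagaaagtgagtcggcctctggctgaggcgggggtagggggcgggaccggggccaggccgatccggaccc
Ltbp4 downstream start: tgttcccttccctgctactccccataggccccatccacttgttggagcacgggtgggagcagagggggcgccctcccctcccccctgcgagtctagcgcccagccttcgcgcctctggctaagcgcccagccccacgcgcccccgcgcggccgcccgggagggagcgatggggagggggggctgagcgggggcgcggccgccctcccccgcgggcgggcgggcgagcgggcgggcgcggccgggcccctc
The AP-1 motif TGANTCA, the letters that JUN and FOS family dimers are known to bind, and its longer form TGANNTCA had no match on either strand in these windows or in the 50 bases after the starts, and the SMAD motif CAGACA had none either. Of 32851 windows of the same 300 bases in the RefSeq table, 7.81%, 14.1% and 21% held a match to the respective motif. The start regions had a GC content of 64.4% and 79.2%. No match says only that these letters are not in these windows. Counts per gene do not show which start the reads came from.

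Ltbp4 had 118, 61 and 143 counts in WT replicates 1 to 3 and 2, 6 and 5 counts in bKO replicates 1 to 3. Those are levels of 3.41, 1.78 and 3.54 CPM against 0.0530, 0.171 and 0.135 CPM, so the genotypes did not overlap, and WT replicate 2 was the lowest of its group. The 95% Poisson interval of counting ran from 1.36 to 2.29 CPM in that lowest WT library, and from 0.0629 to 0.373 CPM in bKO replicate 2, the highest bKO library. Mean levels of Ltbp4 were 2.91 ± 0.981 CPM (WT) and 0.120 ± 0.0606 CPM (bKO). In summed counts (322 in WT and 13 in bKO) Ltbp4 was 24.9 times as high in WT (exact 95% interval 14.4 to 47.3, counting error only, and reads without molecular identifiers are not independent molecules). The fitted log2 difference was -4.57 (SE 0.71). It was between -4.91 and -4.22 in the 13 alternative fits, so leaving out any single library changed it little.

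**Figure D1:**
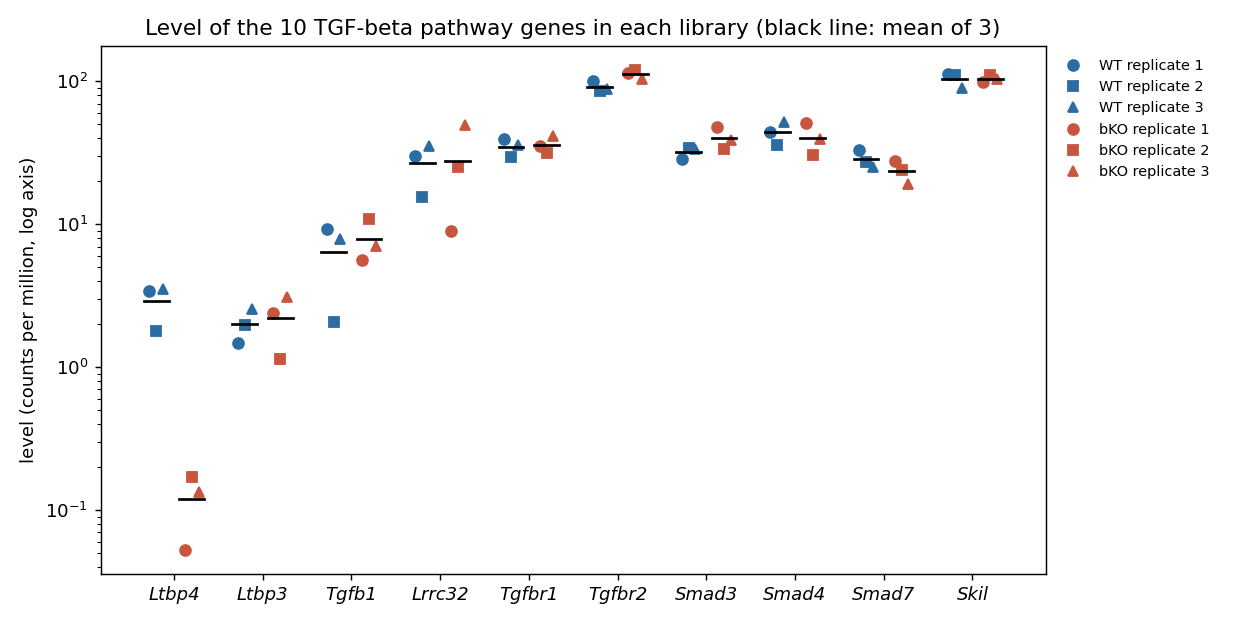
Level of each of the 10 genes in every library, in CPM on a log axis, with WT libraries in blue, bKO libraries in red, a marker shape per replicate number and a black line at the mean of 3 libraries. Ltbp4 is at 1.78 to 3.54 CPM in WT and at 0.0530 to 0.171 CPM in bKO, whereas in the other genes except Tgfbr2 the libraries of the genotypes overlap.

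Of the 17060 tested genes with a WT mean of at least 1 CPM, 7 had a log2 difference as low as that of Ltbp4 or lower, Ltbp4 among them, and in 6 of the 7 the libraries of the genotypes were apart. Over all 20475 genes tested, edgeR with Benjamini-Hochberg adjustment called 0%, so 0 of the 10 members were called (590 genes had an unadjusted p under 0.05, and limma-voom called 0 genes as well). DESeq2 called 0.272% of the genes to which it gave an adjusted p, and 1 of the 10 members, Ltbp4. In 4.07% of tested genes all bKO libraries lay below all WT libraries in CPM, and in 3.68% they lay above. Among the members each of these held for 1 gene, Ltbp4 below and Tgfbr2 above. Nothing is read from these counts, because the members were chosen with this contrast known.

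Ltbp4 is known to be abundant in connective tissue cells. The 10 fibroblast and stromal markers summed to 0.607, 1.49 and 0.372 CPM in WT and 3.84, 1.66 and 0.458 CPM in bKO. Of them Col3a1, Dcn and Lum were at 0 counts in all 6 libraries. The highest sum, in bKO replicate 1, was mostly Pdgfrb (3.26 CPM), and 0 of the 10 passed the filter on low counts. The summed Treg markers given above were lower in bKO replicates 1 and 2 than in any WT library and within the WT range in bKO replicate 3. The B cell sum was highest in WT replicate 2 (8439 CPM), the WT library with the least Ltbp4. The part of the cell makeup of the libraries in the Ltbp4 level was not tested.

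**Figure D2:**
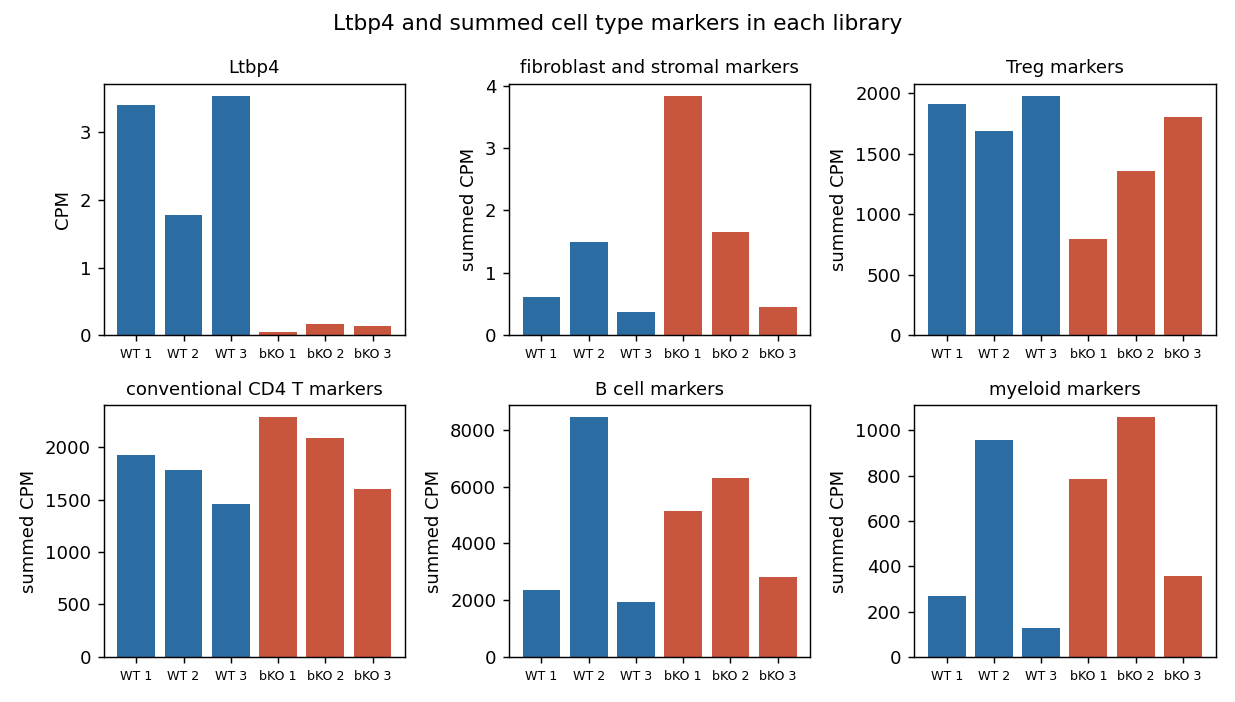
Bars give the level of Ltbp4 (CPM) and the summed level (CPM) of 5 sets of cell type markers in each library, WT in blue and bKO in red, each panel on its own axis from 0. The Ltbp4 bars of bKO are near 0 in all 3 libraries, and the Treg sums are 1689 to 1979 CPM in WT and 795 to 1799 CPM in bKO.

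The nearest genes to Ltbp4 on either side did not stand apart between genotypes. Shkbp1, 4440 bases upstream of Ltbp4 and on the same strand, stood at 49.6 ± 4.27 CPM in WT and 47.2 ± 10.1 CPM in bKO with overlapping libraries (log2 difference -0.071, SE 0.19). Numbl, the nearest gene on the other side, had 0 to 0.212 CPM and was not tested. The 5 genes whose profile over the 6 libraries was most like that of Ltbp4 were Plxnb1, a semaphorin receptor (6.55 ± 2.71 and 1.199 ± 0.386 CPM in WT and bKO), Mmp15, a membrane-bound matrix metalloproteinase (2.44 ± 1.37 and 0.337 ± 0.112 CPM), B3galt2, a galactosyltransferase (4.19 ± 2.41 and 0.645 ± 0.552 CPM), and the unnamed gene models Gm37052 and Gm17484. Likeness was the root mean square difference of log2(CPM + 0.5) centred on each gene, and was 0.328, 0.429, 0.497, 0.435 and 0.499 for these genes in the order given, over 6 libraries. The fitted log2 differences of Plxnb1, Mmp15 and B3galt2 were -2.45, -2.84 and -2.69. Their sizes cannot be ranked against that of Ltbp4. The pseudocount used to pick them shrinks the difference of Ltbp4, and the edgeR fit does not use it.

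Ltbp3 (ENSMUSG00000024940.10), the other LTBP gene of the set, did not stand lower in bKO. It lies on chromosome 19, positions 5740904 to 5758532, plus strand. The start of Ltbp3 holds an AP-1 match that ends at the base where its RefSeq transcript begins, and 30 bases are shown with the match in capitals, because no other member window held one (chr19:5740882-5740911, plus strand, GRCm38.p6):
Ltbp3 start: actaagttctttTGAGTCAgacactggatc
The last letters of the match (CA) also begin a match to CAGACA. Among the 6 members with a RefSeq window, Ltbp4, Ltbp3, Tgfb1, Tgfbr1, Tgfbr2 and Smad3, a TGANTCA match was found in Ltbp3 alone. Levels of Ltbp3 were 1.47, 1.99 and 2.58 CPM for WT replicates 1 to 3, against 2.41, 1.14 and 3.13 CPM for bKO replicates 1 to 3. The highest and the lowest library were both bKO, and the genotypes overlapped. Mean levels were 2.01 ± 0.552 and 2.23 ± 1.005 CPM, a log2 difference of 0.15 (SE 0.54) that had the opposite sign in 3 of 13 alternative fits.

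A further LTBP gene, Ltbp1, which is not a member and is named here after its values were seen, had 40, 9 and 64 counts in WT replicates 1 to 3 and 0 counts in all 3 bKO libraries. In summed counts Ltbp1 was 37.9-fold higher in WT when the bKO group was set to a floor of 3 counts. That value leaves out the counting error of the 113 WT counts. The filter on low counts left Ltbp1 untested by edgeR. Without that filter its adjusted p was 0.863 by edgeR, and DESeq2 called it at an adjusted p of 0.0156.

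Tgfb1 (ENSMUSG00000002603.15; chromosome 7, 25687002 to 25705077, plus strand), the ligand gene, varied more within the genotypes than between them. Its levels in WT replicates 1 to 3 were 9.31, 2.07 and 7.93 CPM, and those in bKO replicates 1 to 3 were 5.67, 10.97 and 7.06 CPM. WT replicate 2 was the lowest of the 6 libraries, and the highest WT library had 4.49 times its level. Mean levels were 6.44 ± 3.84 and 7.90 ± 2.75 CPM, with a log2 difference of 0.29 (SE 0.57). Without WT replicate 2 it was -0.13, and over the 13 alternative fits it reached from there to 0.66. Platelets also hold Tgfb1, and the platelet markers summed to 26.5 to 35.9 CPM in WT and 25.9 to 53.7 CPM in bKO, of which most was the integrin chain Itgb3. The other platelet genes did not move one way: Gp9, a subunit of the von Willebrand factor receptor, had 1, 0 and 0 counts in WT and 88, 38 and 24 in bKO, the integrin chain Itga2b had 121, 60 and 8 against 2, 8 and 11, and the chemokine Pf4 had 27, 15 and 34 against 34, 22 and 27. The part of platelets in the Tgfb1 level was not tested.

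Lrrc32 (ENSMUSG00000090958.2; chromosome 7, 98489283 to 98502181, plus strand), whose product GARP presents latent TGF-beta on activated Tregs, had nearly equal means in the genotypes and the widest spread among bKO libraries of the 10 members. Its levels were 30.3, 15.4 and 35.3 CPM in WT replicates 1 to 3 and 8.96, 25.3 and 49.5 CPM in bKO replicates 1 to 3. The lowest and the highest library were both bKO, and bKO replicate 3 had 5.52 times the level of bKO replicate 1. Its means were 27.0 ± 10.3 and 27.9 ± 20.4 CPM, with a log2 difference of 0.047 (SE 0.60). It was 0.47 without bKO replicate 1 and -0.66 without bKO replicate 3. Within each genotype the libraries had the same order for Lrrc32 as for the summed Treg markers, which were lowest in WT replicate 2 (1689 CPM) and bKO replicate 1 (795 CPM). The part of the Treg share of a library in its Lrrc32 level was not tested.

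The receptor genes were among the more even members. Tgfbr2 (ENSMUSG00000032440.13; chromosome 9, 116084293 to 116175360, minus strand) encodes the receptor chain that binds the ligand. WT replicates 1 to 3 had 101.2, 86.1 and 88.3 CPM of it, and bKO replicates 1 to 3 had 114, 120.4 and 103 CPM. In CPM every bKO library lay above every WT library, by a small margin. In TPM (scaled by gene length, as defined below) the genotypes overlapped, with 13.64 in WT replicate 1 and 13.58 in bKO replicate 3. The means were 91.9 ± 8.18 and 112 ± 8.51 CPM, a log2 difference of 0.29 (SE 0.12) that ranged from 0.24 to 0.37 over the 13 alternative fits. The median of the conventional CD4 T markers was of like size (0.27), with every bKO library above WT for Il7r (log2 difference 0.68) and Cd40lg (0.47), and the part of these cells in Tgfbr2 and in Smad3 was not tested. Tgfbr1 (ENSMUSG00000007613.15; chromosome 4, 47353222 to 47414931, plus strand), the chain that signals to the SMADs, stood at 39.4, 29.8 and 35.7 CPM in WT and 35.5, 31.4 and 41.4 CPM in bKO. Its libraries overlapped throughout, with means of 34.9 ± 4.84 and 36.1 ± 5.06 CPM and a log2 difference of 0.048 (SE 0.18). Each receptor gene varied little within a genotype: the highest library had at most 1.18 times the lowest for Tgfbr2 and 1.32 times for Tgfbr1.

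Of the SMAD transducers, Smad3 had the higher mean in bKO and Smad4 the lower, in both cases with overlapping libraries. Smad3 (ENSMUSG00000032402.12; chromosome 9, 63646767 to 63757994, minus strand) is phosphorylated by the receptor, and its levels in replicates 1 to 3 were 28.5, 34.1 and 33.9 CPM for WT and 48.3, 33.8 and 39.2 CPM for bKO. The highest level was in bKO replicate 1, and bKO replicate 2 lay within the WT range. Mean levels of Smad3 were 32.2 ± 3.19 and 40.4 ± 7.34 CPM, with a log2 difference of 0.33 (SE 0.18), or 0.18 without bKO replicate 1. Smad4 (ENSMUSG00000024515.13; chromosome 18, 73639009 to 73703780, minus strand), the common partner of the other SMADs, stood at 44.6, 35.7 and 52.2 CPM in WT and 51.1, 30.7 and 39.3 CPM in bKO, with the highest library in WT and the lowest in bKO and overlap between. The means were 44.2 ± 8.22 and 40.4 ± 10.2 CPM. Its log2 difference was -0.13 (SE 0.23), and 0.034 without bKO replicate 2.

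The feedback inhibitors, both genes that TGF-beta is known to induce, did not stand apart between genotypes. Smad7 (ENSMUSG00000025880.11; chromosome 18, 75367529 to 75395935, plus strand), which blocks the receptor, had levels of 33.3, 27.5 and 25.3 CPM across WT replicates 1 to 3, and 27.6, 23.8 and 19.0 CPM across bKO replicates 1 to 3. The bKO mean was lower, but bKO replicate 1 exceeded WT replicates 2 and 3. The means were 28.7 ± 4.14 and 23.5 ± 4.28 CPM and the log2 difference was -0.29 (SE 0.21), with a range of -0.42 to -0.16 over the 13 alternative fits. Skil (ENSMUSG00000027660.16; chromosome 3, 31095058 to 31122577, plus strand), which encodes the SMAD corepressor SnoN, stood at 113, 111 and 89.3 CPM in WT and 98.4, 110.4 and 103 CPM in bKO. Its means were 104 ± 13.2 and 104 ± 6.00 CPM, and the log2 difference was -0.0051 (SE 0.13), which changed sign in 6 of 13 alternative fits.

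**Figure D3:**
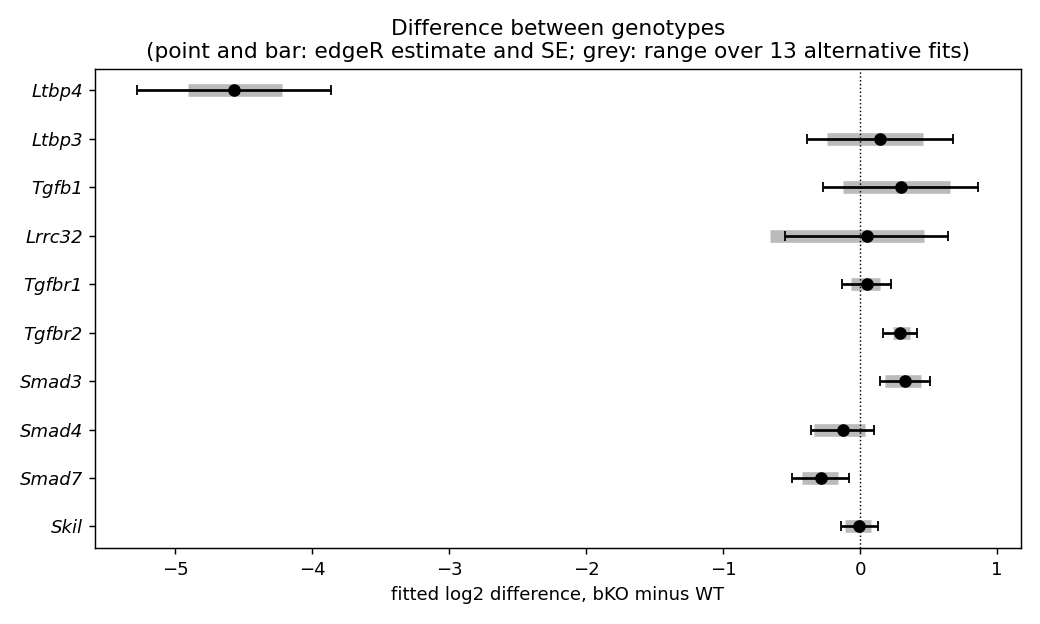
Points give the fitted log2 difference (bKO minus WT) of each of the 10 genes with its SE as bars, and grey bands the range over 13 alternative fits. Ltbp4 lies at -4.57, and the other 9 genes lie between -0.29 and 0.33.

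Of the 10 genes, 4 had 1 sign in the edgeR fit and in all 13 alternative fits: Ltbp4 and Smad7 lower in bKO, and Tgfbr2 and Smad3 higher. The other 6 (Ltbp3, Tgfb1, Lrrc32, Tgfbr1, Smad4 and Skil) changed sign in 2 to 6 of the fits. With RLE factors in place of TMM, the sign of all 10 was as in the edgeR fit. The median log2 difference of the 10 members was 0.047, beside 0.0055 over all tested genes.

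Levels of different genes can be compared only per length, so they are also given as TPM, that is, counts divided by the summed length of all annotated exons of a gene and scaled to a fixed total per library. In WT the order was Smad4 (12.7 ± 1.74 TPM), Tgfbr2 (12.03 ± 1.47), Skil (11.6 ± 2.09), Smad7 (6.82 ± 1.27), Smad3 (6.20 ± 0.589), Lrrc32 (6.10 ± 2.12), Tgfbr1 (5.72 ± 0.826), Tgfb1 (1.35 ± 0.812), Ltbp4 (0.479 ± 0.150) and Ltbp3 (0.235 ± 0.0525). Between neighbours in this order, the ranges over WT libraries overlapped among the first 3, among the next 4, and for Tgfb1 and Ltbp4. Even so, Tgfb1 was above Ltbp4 in each WT library. In replicates 1 to 3 the values were 2.04, 0.457 and 1.57 TPM for Tgfb1 and 0.582, 0.306 and 0.547 TPM for Ltbp4. The libraries were apart between Skil and Smad7, between Tgfbr1 and Tgfb1, and between Ltbp4 and Ltbp3. The ligand and LTBP genes were thus the scarce members. Among tested genes, Smad4 stood at the 74.8th percentile of WT level, Tgfb1 at the 28.6th, Ltbp4 at the 13.4th and Ltbp3 at the 6.34th. In bKO Ltbp4 came last, at 0.0197 ± 0.0105 TPM, below Ltbp3 at 0.256 ± 0.117 TPM with no overlap. By this length the LTBP genes stood in opposite order in the genotypes. With the longest coding transcript as length, Skil came first in WT (14.9 ± 2.67 TPM) and Tgfb1 came to 2.80 ± 1.67 TPM. Tgfb1, Ltbp4 and Ltbp3 were again the last. Ltbp4 then stood at 0.512 ± 0.160 TPM and Ltbp3 at 0.367 ± 0.0823 TPM in WT, a gap within the spread of the libraries.

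The rest of the pathway was followed in 80 further genes in 6 lists, of which 57 were tested. Of these 0 passed the edgeR threshold in either direction, 4 of 57 had an unadjusted p under 0.05 (590 of 20475 over all tested genes), 33 had a lower and 24 a higher mean in bKO (49.1% of all tested genes were lower), and the median log2 difference was -0.069. The bKO libraries lay below WT in 3 of the 57 (5.26%) and above in 3 (5.26%), beside 4.07% and 3.68% of all tested genes.

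Among genes of latency and activation, 7 of 10 tested had a lower mean (median -0.094). Nrros, which presents latent TGF-beta on myeloid cells (67.0 ± 15.0 and 86.9 ± 16.95 CPM in WT and bKO), and the integrin chain Itgb1 (176 ± 61.9 and 172 ± 66.4 CPM) were the most abundant, and both overlapped. Tgfb3, another ligand gene, had 1, 11 and 16 counts in WT replicates 1 to 3 and 95, 43 and 78 in bKO replicates 1 to 3, so that its libraries were apart and it stood higher in bKO (log2 difference 2.95, SE 0.93). Myeloid markers summed to 268, 959 and 127 CPM in WT and 783, 1058 and 358 CPM in bKO. WT replicate 2, at the second highest myeloid sum, had 11 counts of Tgfb3. The part of myeloid cells in Tgfb3 and Nrros was not tested.

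The other receptors, 8 tested, had a lower mean in 3 and a higher one in 5 (median 0.091). Tgfbr3, the coreceptor betaglycan (12.9 ± 0.529 and 14.1 ± 7.64 CPM), and the BMP receptor Bmpr2 (8.53 ± 2.51 and 10.6 ± 2.24 CPM) led in abundance, and both overlapped. Of 8 SMADs and adaptors tested, 5 had a lower mean (median -0.16). Smad5, a transducer of BMP signals, stood at 15.0, 11.9 and 17.7 CPM in WT and 24.2, 29.6 and 19.6 CPM in bKO, with every bKO library above WT (log2 difference 0.72, SE 0.24). The acetyltransferase Ep300, a SMAD coactivator, stood at 41.03, 44.1 and 46.4 CPM in WT and 26.8, 36.0 and 36.0 CPM in bKO, all below WT (log2 difference -0.41, SE 0.17). Its close relative Crebbp did not share this (230.4 ± 23.1 and 232 ± 37.7 CPM). Without bKO replicate 1 the median of this list was 0.12 in place of -0.16. That fit applied the filter on low counts anew, so this change may come from the genes of the list that were tested.

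Of 14 negative regulators, all tested, 9 had a lower mean (median -0.13). The SKIL relative Ski (78.7 ± 21.3 and 61.8 ± 8.82 CPM) and Fkbp1a, whose product holds TGFBR1 inactive (91.8 ± 16.7 and 68.9 ± 23.3 CPM), were the most abundant, and in 0 of the 14 were the libraries apart.

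The list of genes that respond to TGF-beta holds some that it raises and some that it lowers, so its split (7 of 14 tested lower, 7 higher, median -0.0093) bears on no direction of signalling. The most abundant were the inhibitors of helix-loop-helix factors Id2 (199.6 ± 51.5 and 223 ± 21.9 CPM) and Id3 (208 ± 15.5 and 174 ± 45.6 CPM). Myc stood at 80.1, 85.7 and 69.7 CPM in WT and 97.7, 94.4 and 93.6 CPM in bKO, all above WT. Tbx21, the gene of the helper factor T-bet, stood at 4.51, 5.17 and 5.97 CPM in WT and 3.79, 3.03 and 4.15 CPM in bKO, all below WT. The cell cycle inhibitor Cdkn2b had 15, 28 and 102 counts in WT and 0, 3 and 0 in bKO. In summed counts Cdkn2b was 48.6 times as high in WT (exact 95% interval 16.3 to 239, counting error only), with 102 of the 145 WT counts in WT replicate 3.

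The microfibril and elastic fibre genes with which LTBPs assemble were mostly near or at 0, and 3 of 11 were tested. Fn1, the gene of fibronectin (8.45 ± 8.90 and 22.8 ± 14.3 CPM), and Emilin1 (2.32 ± 1.93 and 1.29 ± 0.759 CPM) were the most abundant. Fn1 was highest in WT replicate 2 and bKO replicates 1 and 2 (18.5, 23.1 and 36.9 CPM), the libraries with the 3 highest myeloid sums. The part of myeloid cells in Fn1 was not tested. The median of this list (-0.71, from 3 genes) turned to 0.99 without WT replicate 1 and 0.23 without WT replicate 3. The filter on low counts was applied anew in those fits, so the genes tested can differ from these 3.

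**Figure D4:**
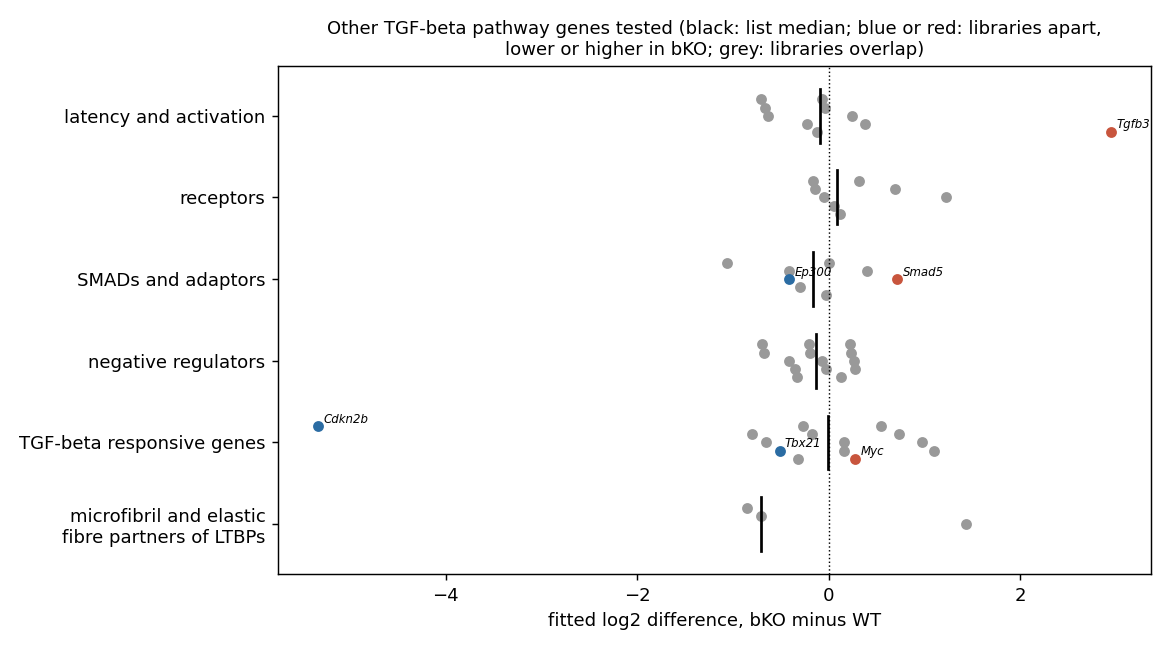
Each point is 1 tested gene of the 6 further lists at its fitted log2 difference (bKO minus WT), a black line marks the median of a list, and genes whose libraries were apart are named (blue lower, red higher in bKO). Cdkn2b and Tgfb3 lie farthest out, and the list medians lie between -0.71 and 0.091.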

How the data were processed

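The authors deposited raw read counts, 1 table per library, made with bcl2fastq 2.19.0.316, STAR 2.3 and featureCounts on mm10, per the submitters' processing notes. For the annotation release, counting options and strand use the sources used here give no statement. Libraries came from SmarTer low-input cDNA read as single reads of 50 bases, per the labels' protocols. Symbols, positions and lengths were taken from GENCODE M21 (GRCm38), which matched 53274 of 53379 identifiers, and start regions from RefSeq (GRCm38.p6). Counts were compared with edgeR 4.0.16 (R 4.3.3): filterByExpr, TMM, a robust quasi-likelihood fit on genotype, Benjamini-Hochberg adjustment over 20475 genes and a threshold of 0.05. The fit was tested on simulated data. The 13 alternative fits were DESeq2 1.42.0, limma-voom (limma 3.58.1), no filter, a filter of 1 CPM in 3 libraries, RLE factors, a replicate block, a term for the number in the table names, and each library left out.

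The members, lists and tests were chosen with earlier results of these data known. Named genes were the members, the 2 most abundant genes and up to 4 with libraries apart of each further list, the 5 profiles most like Ltbp4 (mean of at least 1 CPM, pseudocount 0.5 CPM) and the genes that touch a member, of which 1 result is not reported here. Total counts of 33784183 to 41231173 per library limit the precision of low genes: counting alone gave Ltbp4 in bKO replicate 2 the interval printed above. Fibroblast, platelet, B cell, myeloid, Treg, endothelial, CD8 T and NK, T cell and conventional CD4 T markers were summed. The sums not given above were 89.4 to 136 CPM (endothelial, almost all Pecam1), and, for WT and bKO in turn, 71.9 to 135 and 91.8 to 187 CPM (CD8 T and NK), 3706 to 4780 and 3284 to 3845 CPM (all T cells), and 1458 to 1925 and 1601 to 2286 CPM (conventional CD4 T).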

Additional observations from a re-analysis of the deposited data

How the results depend on the processing

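The number of genes called by edgeR, 0, was also 0 in 12 of the 13 alternative fits, with limma-voom and without each library in turn included, and 63 with DESeq2. With the replicate number as a block it was 0, with 712 genes at an unadjusted p under 0.05 beside 590. The replicate numbers are not stated to pair the libraries, so they were not taken to. The deviations of same-numbered libraries correlated at -0.12, 0.26 and 0.070, and those of differently numbered libraries at -0.26 to 0.18. Deviations from a group mean are not independent, so these values do not settle the pairing. The log2 difference of Ltbp4 was -4.91 to -4.22 with each library left out. Its mean log2(CPM + 0.5) differed by -2.15 among the libraries of the first number in the table names (2 WT, 1 bKO) and by -2.77 among those of the second (1 WT, 2 bKO), where the pseudocount shrinks the value. The fits with a library left out applied the filter on low counts anew and tested 21338 to 21480 genes. The genes behind a list median can therefore differ between fits. With each library left out, the median log2 difference was 0.12 to 0.26 for receptors and -0.34 to 0.12 for SMADs and adaptors. For the microfibril genes the median was -1.31 to 0.99. It was -0.21 to -0.00059 for latency and activation, -0.21 to -0.073 for negative regulators and -0.17 (without WT replicate 1) to 0.19 (without WT replicate 3) for the responsive genes, so this last median had no stable sign. At low counts, as for Ltbp4 in bKO, Ltbp1, Tgfb3 and Cdkn2b, counting error and dropout between libraries limit the values.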
